A study of Mus musculus with 8 samples.

Results

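Midn and 9 immediate early genes (Fos, Fosb, Jun, Junb, Egr1, Ier2, Nr4a1, Atf3 and Btg2) were followed in the livers of Midn heterozygous and wild-type mice. They were picked by symbol, and their 10 rows were taken from a table of 25078 genes. All 10 passed the filter on low counts, as did 14438 genes in all. RNA was sequenced from 8 livers of male C57/BL6 mice on a Western-style diet rich in fat, fructose and cholesterol, given to both genotypes for 25 weeks. Of these mice, 3 carried a single intact Midn copy (termed Midn hemizygotes in the genotype label and Het in the titles, and here het-labelled) and 5 were wild type. The allele is a global knockout, not restricted to hepatocytes, and the homozygous state was mostly lethal before birth. Livers were kept in RNAlater before extraction, and ages are not given in the labels. The labels do not say which stretch of the gene was removed, nor whether the mice were littermates, and the p-values given here reflect only how these 8 libraries scatter.

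Immediate early genes are switched on within minutes of a growth factor, hormone or stress signal, without new protein synthesis, and most of their products are transcription factors with very short half-lives. Signals travel through the ERK, p38 and JNK kinases to factors already bound at the promoters, chiefly CREB at cAMP response elements and SRF with its partners at CArG boxes. Midnolin, the product of Midn, is itself induced by such signals and captures nuclear proteins, c-Fos, FosB and EGR1 among them, for destruction in the proteasome without ubiquitin. In liver the family is known for its burst after partial hepatectomy and during tissue handling, and Egr1, Atf3 and AP-1 are known for roles in liver injury. Only transcripts were measured here, and a change in the stability of the proteins would not be seen.

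The stretch of 250 bases just upstream of the transcription start, where CREB and EGR factors are known to act on this family, is printed for Midn and for 3 genes that show the range of its elements. Sequences are from RefSeq on GRCm38.p6, given 5′ to 3′ on the strand of the gene and ending at the base before the start. Capitals mark the core of the cAMP response element (TGACG, read as CGTCA on the other strand), the EGR site GCGGGGGCG (CGCCCCCGC on the other strand) and the TATA box TATAAA.
Midn, chr10:80148022-80148271, plus strand: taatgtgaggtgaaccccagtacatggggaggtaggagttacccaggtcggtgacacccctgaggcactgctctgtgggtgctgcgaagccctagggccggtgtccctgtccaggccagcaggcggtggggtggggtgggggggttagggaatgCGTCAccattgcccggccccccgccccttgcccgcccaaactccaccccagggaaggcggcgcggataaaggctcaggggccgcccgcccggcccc
Nr4a1, chr15:101266596-101266845, plus strand: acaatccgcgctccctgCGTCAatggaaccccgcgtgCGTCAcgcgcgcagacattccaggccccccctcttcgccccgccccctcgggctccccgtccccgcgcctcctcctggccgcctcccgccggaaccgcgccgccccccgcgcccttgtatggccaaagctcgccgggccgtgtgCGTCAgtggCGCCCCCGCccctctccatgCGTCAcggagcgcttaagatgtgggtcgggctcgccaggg
Fos, chr12:85473640-85473889, plus strand: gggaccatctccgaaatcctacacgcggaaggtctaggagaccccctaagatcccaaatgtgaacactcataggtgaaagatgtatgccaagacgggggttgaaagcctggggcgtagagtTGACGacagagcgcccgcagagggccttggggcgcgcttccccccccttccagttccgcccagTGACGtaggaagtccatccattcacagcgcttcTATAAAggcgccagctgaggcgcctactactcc
Fosb, chr7:19310046-19310295, minus strand: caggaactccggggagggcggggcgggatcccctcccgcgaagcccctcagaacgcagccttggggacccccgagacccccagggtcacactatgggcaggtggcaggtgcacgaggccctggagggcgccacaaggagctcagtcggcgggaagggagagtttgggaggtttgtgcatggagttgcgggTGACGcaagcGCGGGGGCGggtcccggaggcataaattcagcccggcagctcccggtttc
Midn holds 1 CRE core at −96, counted from the start. Another Midn start, at 80149682, had no match to any of these elements. Nr4a1 holds 4 cores, at −233, −213, −69 and −40, and an EGR site at −60 between the last pair. Fos holds cores at −129 and −66 and a TATA box at −33, and Fosb a core at −60 with an EGR site at −50.

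The TGACG core was found in 7 of the 8 genes whose promoter was read, on either strand, against 17.8% of 32851 mouse promoters of the same length. A gene was counted if any of its starts held the core, and 1 of the 2 Midn starts did. Jun was the exception. Btg2 had the whole element TGACGTCA at −166, which overlaps its 2 core matches and which 1.55% of promoters hold. The EGR site occurs in 2.57% of promoters and the TATA box in 12.4%. The AP-1 site TGANTCA (6.75% of promoters), the EGR variant GCGTGGGCG (0.536%) and the CArG box (1.47%) were not matched in these windows, although SRF sites further upstream of Fos are well known. These are letter matches and not measured binding.

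The genes also share a compact build. Their genomic span was under 10 kb in 8 of 10, against 27.3% of tested genes, whose median span was 21829.5 bases. Jun, Junb and Ier2 had an exon length equal to their span, that is, no intron, which held for 3.86% of tested genes. The pentamer ATTTA, a mark of unstable transcripts in 3′ untranslated regions, was denser than the median of 1.24 per kb over 13078 genes in 7 of 10. It reached 5.53 per kb in Nr4a1 and 4.91 in Fos, which alone among the 10 held the longer element TTATTTATT (7.24% of genes). Midn had 1.16 per kb, Fosb 0.466 and Ier2 none in its 755 bases. None of the 10 overlapped another gene of the table.

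Counts assigned to genes summed to 17508221 to 24916239 in the het-labelled libraries and 18687680 to 21064473 in the wild-type ones. Values below are CPM (counts scaled to a common library total) after TMM scaling, or the authors' deposited RPKM where genes are compared with each other. Hepatocyte markers were abundant in every library, their summed level being 36798 to 65732 CPM in het-labelled and 33959 to 41384 CPM in wild-type livers. The RNA component of ribonuclease P, Rpph1, a transcript with no poly(A) tail, took 0.229 to 0.399% of counts in the het-labelled libraries, 0.304 and 0.331% in wild-type libraries 3 and 1, and 0.673 to 1.06% in wild-type libraries 2, 4 and 5. The labels name no batch. Because some of the 10 genes moved with that share, each gene's genotype difference is also given against parts of the wild-type group. These parts are wild-type libraries 1 and 3, and wild-type libraries 2, 4 and 5. They were set apart with these values known, so the differences against them are a description and no independent support.

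Midn, the targeted gene (chr10:80148272-80158368, plus strand, mm10), came to 60.4, 39.1 and 51.7 CPM in het-labelled libraries 1, 2 and 3. In wild-type libraries 1 to 5 it came to 68.7, 39.8, 71.5, 41.7 and 29.3 CPM. The 3 het-labelled values lay within the wild-type range, the highest values were those of wild-type libraries 3 and 1, and the lowest that of wild-type library 5. The het-labelled mean was 50.4 ± 10.7 CPM and the wild-type mean 50.2 ± 18.8 CPM (SD, n = 3 and 5; two-sided exact permutation p = 1, where 0.0357 is the smallest possible). On the log2 scale the difference was 0.00 with a 95% interval of −0.68 to 0.69 (edgeR adjusted p = 0.994), so that the targeted gene's RNA did not separate the labelled genotypes. Reads outside a deleted stretch would still count, and a library's genotype cannot be checked by this level.

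The difference in Midn is also given against each wild-type subset, as a description. Wild-type libraries 1 and 3 had the 2 highest Midn values of the 8 livers, which fixes the direction against them. Leaving them out can only lower the wild-type mean, and over all livers the means of the genotypes were nearly equal. The direction against wild-type libraries 2, 4 and 5 was therefore fixed as well. Against wild-type libraries 1 and 3, with a mean of 70.1 CPM, the het-labelled livers were lower by a log2 fold change of −0.54 (SE 0.17; edgeR adjusted p = 0.104). Against wild-type libraries 2, 4 and 5, with a mean of 36.9 CPM, they were higher by 0.40 (SE 0.19; edgeR adjusted p = 0.167). Neither passed the threshold of 0.05 on the adjusted p.

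**Figure D1:**
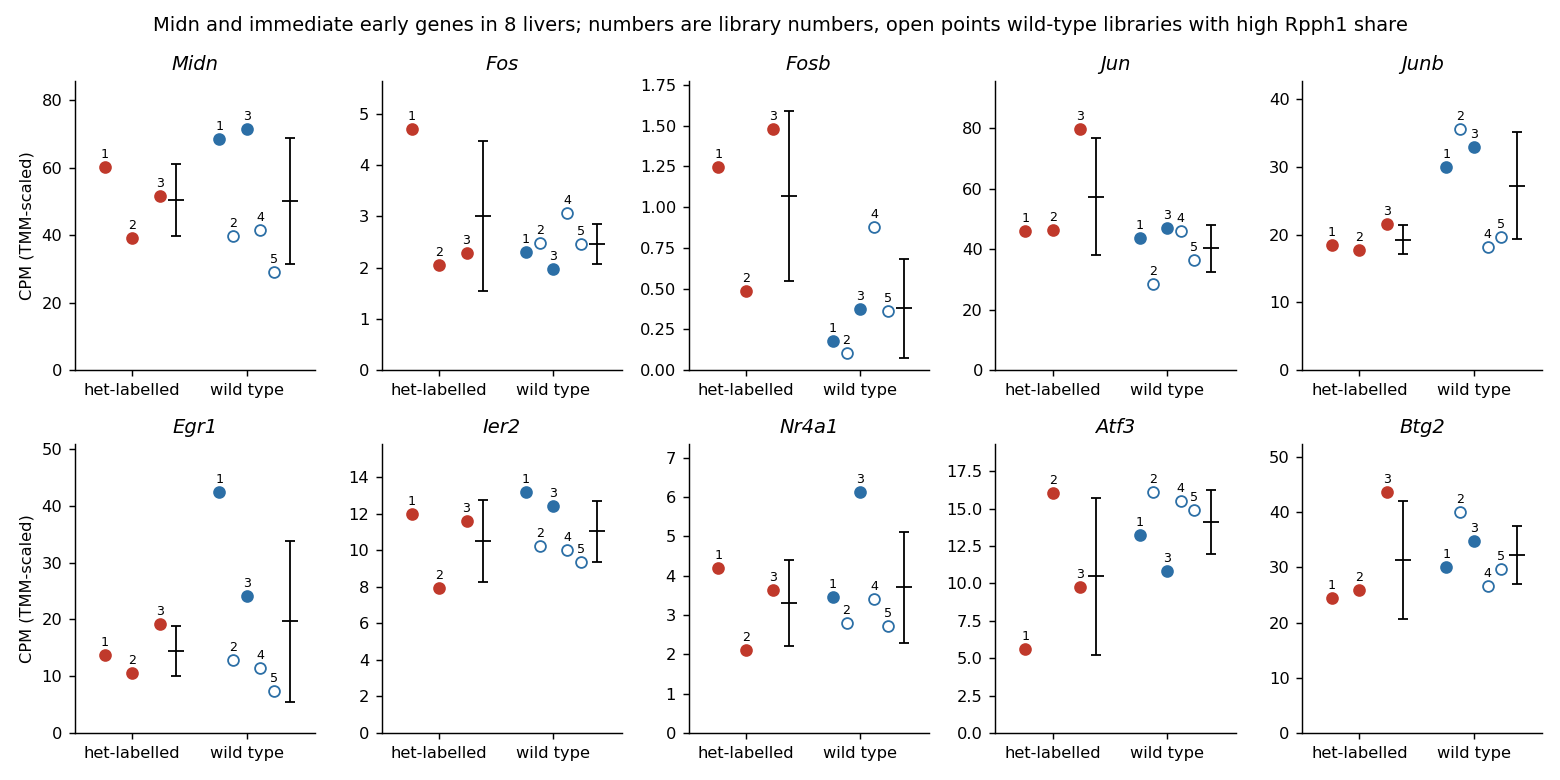
TMM-scaled CPM (vertical axis, linear from 0) of Midn and 9 immediate early genes in each of 3 het-labelled (red) and 5 wild-type (blue) livers, numbered by library, with open points for wild-type libraries 2, 4 and 5 and a bar for mean ± SD. All 10 genes overlap between the genotypes, and Fosb shows the widest shift, with 1.24, 0.484 and 1.48 CPM in het-labelled livers against 0.103 to 0.879 CPM in wild type.

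Across the 10 genes none was called by genotype, with 0 of 10 at an adjusted p under 0.05 by edgeR's quasi-likelihood test. The background was also 0%, with 0 of 14438 tested genes called. At an unadjusted p under 0.05, Fosb alone was higher, 1 of the 10, with 0 lower, against 10.3% and 5.43% of all tested genes. This changed with the processing. Fosb did not pass with library size alone or in most fits that left out 1 library, and Junb passed on the lower side in some alternatives. DESeq2 called 0 of the 10 and 1.1% of all genes (166 of 15137), and limma-voom called 0 of both. In all 10 the het-labelled and wild-type values overlapped, while 9.86% of tested genes had groups that did not (7.54% with all het-labelled values above, 2.32% below). The median log2 fold change of the 10 was −0.06, against 0.00 for all tested genes. In the same livers the median of the marker lists was −0.93 for bile duct, −0.76 for T and NK cells, −0.67 for the 3 tested neutrophil markers, −0.65 for B cells, −0.36 for Kupffer cells, −0.18 for stellate cells, 0.28 for sinusoidal endothelium and 0.33 for hepatocytes. The red cell list had 1 tested marker, Alas2 (0.88; edgeR adjusted p = 0.259). Its 4 globin genes had no counts in any library. The cause was not tested, and these rows cannot tell how much blood the livers held. Of all these markers edgeR called 0 over all livers, and DESeq2 called 1 of hepatocytes. Against wild-type libraries 2, 4 and 5, edgeR called 2 of Kupffer cells and 1 of B cells, where 18.9% of all tested genes were called. The part of these markers in the values of the 10 was not tested.

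The AP-1 proteins, dimers of a Fos with a Jun protein, are the best known products of the family. The 4 Fos and Jun genes followed here did not move together. Fosb, whose protein resists decay in its truncated ΔFosB form, was the rarest, with 27, 9 and 31 counts in het-labelled libraries 1 to 3 and 4, 2, 10, 16 and 6 counts in wild-type libraries 1 to 5. As CPM these were 1.24, 0.484 and 1.48 in het-labelled and 0.178, 0.103, 0.374, 0.879 and 0.361 in wild-type livers. Het-labelled libraries 1 and 3 lay above every wild-type value, and het-labelled library 2 lay below wild-type library 4. Its log2 fold change came to 1.505 (SE 0.63, 95% interval 0.09 to 2.92), with an edgeR unadjusted p of 0.0381 and an adjusted p of 0.298. It was 1.85 against wild-type libraries 1 and 3 and 1.21 against wild-type libraries 2, 4 and 5 (edgeR adjusted p = 0.125 and 0.250). The handful of reads in each library limits how firmly this can be read.

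Jun, which can pair with any of the Fos proteins, had 46.0, 46.3 and 79.7 CPM in het-labelled libraries 1 to 3, against 43.7, 28.5, 46.9, 46.0 and 36.4 CPM in wild-type libraries 1 to 5. Only het-labelled library 3 stood above the wild-type range. This gave a log2 fold change of 0.51 (SE 0.24) with an edgeR adjusted p of 0.328, or 0.20 without that library. Fos had 4.70, 2.04 and 2.29 CPM in het-labelled libraries 1 to 3 and 2.31, 2.47, 1.98, 3.08 and 2.47 CPM in wild-type libraries 1 to 5. Here het-labelled library 1 alone was high, and the difference of 0.30 on the log2 scale (SE 0.32; edgeR adjusted p = 0.626) turned to −0.18 without it. Against wild-type libraries 1 and 3, then against libraries 2, 4 and 5, Jun differed by 0.27 and 0.59 and Fos by 0.43 and 0.12 (edgeR adjusted p between 0.138 and 0.831).

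Junb is a weaker activator that can oppose Jun. Among the Fos and Jun genes followed here, it alone had a lower mean in the het-labelled livers. Het-labelled libraries 1 to 3 had 18.5, 17.7 and 21.6 CPM, against 30.02, 35.5, 32.9, 18.1 and 19.6 CPM in wild-type libraries 1 to 5. Wild-type libraries 1, 2 and 3 were high, and wild-type libraries 4 and 5 stood among the het-labelled values. With a log2 fold change of −0.50 (SE 0.25), Junb had an edgeR adjusted p of 0.348. It was −0.77 (SE 0.12, edgeR adjusted p = 0.0664) against libraries 1 and 3. Against libraries 2, 4 and 5 it was −0.39 (SE 0.26, edgeR adjusted p = 0.303). Wild-type libraries 1 and 3 both lay above every het-labelled value, which fixes the direction against them. Both comparisons use the same 3 het-labelled livers, so the shared sign is no independent support.

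Egr1, a zinc finger activator of growth and injury genes, varied more between wild-type livers than between genotypes. It had 13.7, 10.5 and 19.2 CPM in het-labelled libraries 1 to 3 and 42.5, 12.8, 24.1, 11.5 and 7.41 CPM in wild-type libraries 1 to 5. Wild-type libraries 1 and 3 were the highest of all 8 and wild-type library 5 the lowest. This fixes the direction of the difference against wild-type libraries 1 and 3. The highest value was 1.82 times the lowest among het-labelled livers and 5.73 times among wild-type ones. Egr1 differed by a log2 fold change of −0.45 over all livers (SE 0.53, with an edgeR adjusted p of 0.654), but by −1.26 (SE 0.31; edgeR adjusted p = 0.0777) against wild-type libraries 1 and 3 and 0.40 (SE 0.27; edgeR adjusted p = 0.312) against libraries 2, 4 and 5. Without wild-type library 1 it was 0.04.

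Nr4a1, an orphan nuclear receptor that acts on hepatic glucose output, had 4.19, 2.10 and 3.62 CPM in het-labelled libraries 1 to 3, against 3.46, 2.78, 6.13, 3.40 and 2.71 CPM in wild-type libraries 1 to 5. Wild-type library 3 stood well above the rest. On the log2 scale Nr4a1 differed by −0.16 (SE 0.35, with an edgeR adjusted p of 0.807), and by 0.05 without that library. Against wild-type libraries 1 and 3 it was −0.60 and against libraries 2, 4 and 5 it was 0.11 (edgeR adjusted p = 0.313 and 0.826).

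Atf3, a stress-induced repressor that binds cAMP response elements, gave 5.62, 16.04 and 9.77 CPM in het-labelled libraries 1 to 3 and 13.2, 16.1, 10.8, 15.5 and 14.9 CPM in wild-type libraries 1 to 5. Het-labelled libraries 1 and 3 lay below every wild-type value, while het-labelled library 2 was close to the highest. Its log2 fold change, with SE 0.30 and an edgeR adjusted p of 0.478, came to −0.43, and to −0.87 without het-labelled library 2. With all libraries it kept its sign against both wild-type subsets, at −0.26 and −0.61 (edgeR adjusted p = 0.693 and 0.225).

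Ier2, a small nuclear protein of the early response, and Btg2, an antiproliferative partner of the mRNA deadenylase, were the steadiest. Ier2 had 11.98, 7.91 and 11.6 CPM in het-labelled libraries 1 to 3, against 13.2, 10.3, 12.4, 9.99 and 9.33 CPM in wild-type libraries 1 to 5. Btg2 had 24.5, 25.8 and 43.7 CPM in het-labelled libraries 1 to 3, against 30.2, 39.98, 34.7, 26.7 and 29.7 CPM in wild-type libraries 1 to 5. Both sets of values interleaved, apart from a high Btg2 value in het-labelled library 3 and a low Ier2 value in het-labelled library 2. Their log2 fold changes were −0.07 (SE 0.19) for Ier2 and −0.04 (SE 0.22) for Btg2, with edgeR adjusted p of 0.849 and 0.928, and 95% intervals of −0.51 to 0.37 and −0.55 to 0.46. Against wild-type libraries 1 and 3 Ier2 differed by −0.35, and against libraries 2, 4 and 5 by 0.04 (edgeR adjusted p = 0.263 and 0.895). Wild-type libraries 1 and 3 had the highest Ier2 values of all livers, which fixes the direction against them. In the same order Btg2 differed by −0.12 and −0.09 (edgeR adjusted p = 0.783 and 0.834).

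**Figure D2:**
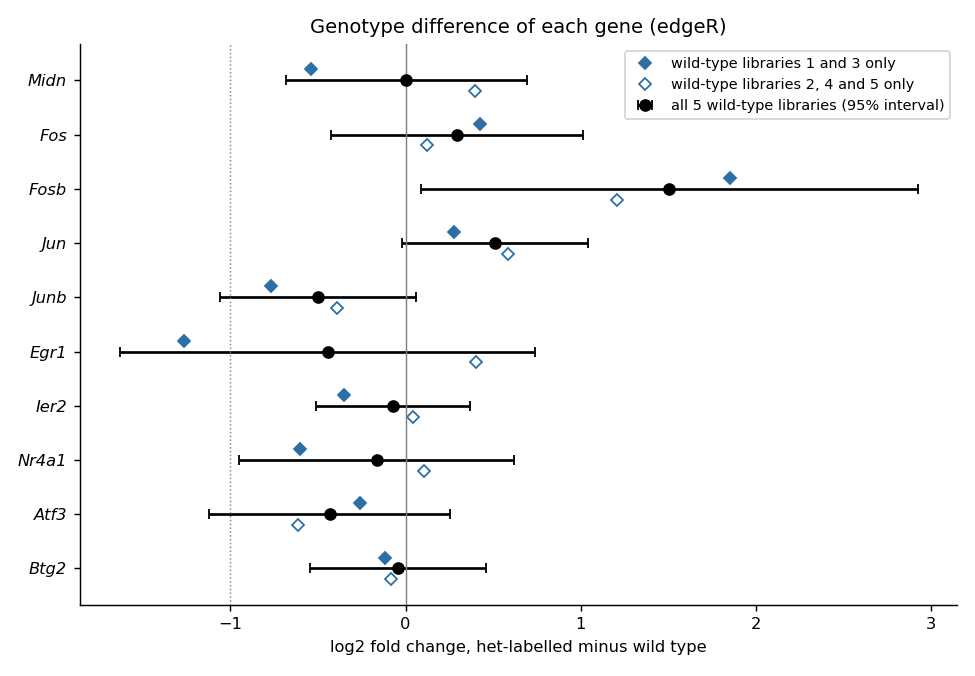
Log2 fold change of each gene, het-labelled minus wild type, by edgeR (black, with 95% interval), with the same against wild-type libraries 1 and 3 alone (filled diamonds) and against wild-type libraries 2, 4 and 5 alone (open diamonds). The dotted line marks −1, and Midn, Egr1, Ier2 and Nr4a1 lie on opposite sides of 0 against the 2 wild-type subsets, with Egr1 at −1.26 and 0.40.

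Set beside the rest of the transcriptome, the counts of the 10 genes in these subsets lay near or below the background. Against wild-type libraries 1 and 3, 0 of 10 passed the adjusted p in edgeR, while 0.143% of tested genes did (21 of 14645; 0.0956% higher, 0.0478% lower). There, 4 of 10 had an unadjusted p under 0.05 (Midn, Junb and Egr1 lower, Fosb higher), against 31.6% of genes. Against wild-type libraries 2, 4 and 5, 18.9% of tested genes passed the adjusted p (2632 of 13922; 8.4% higher, 10.5% lower) and 37.6% the unadjusted, while 0 of the 10 passed either. Both comparisons use the same 3 het-labelled livers and are therefore not independent.

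Compared per length, Jun was the most abundant, with a mean of 14.3 ± 4.47 RPKM over the 8 livers, followed by Midn (13.2 ± 4.26), Junb (12.8 ± 3.97) and Btg2 (10.1 ± 2.14). Below them came Ier2 (6.94 ± 1.22 RPKM), Atf3 (6.28 ± 1.82) and Egr1 (5.65 ± 3.71), then Nr4a1 (1.402 ± 0.518), Fos (1.23 ± 0.395) and Fosb (0.163 ± 0.128; SD, n = 8). Neighbours in this order overlapped in their ranges, save Fos and Fosb. Liver by liver, Btg2 was above Ier2, Egr1 above Nr4a1, and Fos above Fosb in 8 of 8, and Junb was above Btg2 in 7 of 8. Midn was above Junb in 6 of 8. Jun was above Midn, Ier2 above Atf3 and Atf3 above Egr1 in 4 of 8 each, and Nr4a1 above Fos in 3 of 8, so the order of these pairs was not set. Midn lay at percentile 73.0 of mean RPKM among tested genes and Fosb at percentile 2.07.

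The spread between livers of 1 genotype, as the pooled SD of log2 CPM, put Fosb and Egr1 far up the range of tested genes, both at percentile 92.0. Midn (percentile 70.9), Nr4a1 (70.2), Atf3 (69.3) and Fos (61.3) were above the middle. Junb (56.1), Jun (53.7) and Btg2 (46.9) were near it, and Ier2 was at percentile 33.3. The genes did not share 1 high or 1 low liver. Het-labelled library 3 had the highest Fosb, Jun and Btg2, het-labelled library 1 the highest Fos and the lowest Atf3, wild-type library 1 the highest Egr1 and Ier2, and wild-type library 3 the highest Nr4a1 and Midn. Fosb and Fos had the fewest reads, and counting error weighs most on them.

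Across the 8 livers Egr1, 1 of 9, was correlated with Midn at an adjusted p under 0.05, as were 14.8% of all tested genes. Ier2 and Nr4a1 passed at the unadjusted p alone. With Egr1 they make 3 of 9, a share near the 33.6% of all tested genes with an unadjusted p under 0.05. Egr1 had Pearson's r of 0.87 with Midn on log2 CPM (exact permutation p = 0.00444; 0.0397 adjusted over 14437 genes) and Spearman's rho of 0.93 (exact permutation p = 0.00223; 0.0855 adjusted). Ier2 had r of 0.84 (exact permutation p = 0.00918; 0.0554 adjusted) and rho of 0.93. Nr4a1 had r of 0.77 (exact permutation p = 0.0207; 0.0873 adjusted) and rho of 0.90 (exact permutation p = 0.00456; 0.0855 adjusted).

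Het-labelled library 2 and wild-type library 5 had the 2 lowest values of each of the 3 genes, as they did of Midn, and wild-type library 3 had the highest or the next to highest. Leaving out the 2 livers farthest from the median Midn level, wild-type libraries 5 and 3, left r at 0.82 for Egr1 and 0.88 for Ier2 (exact permutation p = 0.0264 and 0.0194, n = 6). For Nr4a1 it left 0.71 (exact permutation p = 0.117, n = 6), past the unadjusted threshold no longer. With these 6 livers 9.34% of all genes had an unadjusted p under 0.05 and 0 passed the adjusted p, the smallest of which was 0.478 by the exact permutation test. With each genotype centred on its own mean, r was 0.89 for Egr1, 0.87 for Ier2, 0.80 for Nr4a1 and −0.63 for Atf3 (exact permutation within genotype, unadjusted p = 0.0167, 0.00556, 0.0125 and 0.0222). These are 4 of 9, against 31.6% of all genes in that setting, and 0 of the 9 passed an adjusted p under 0.05.

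**Figure D3:**
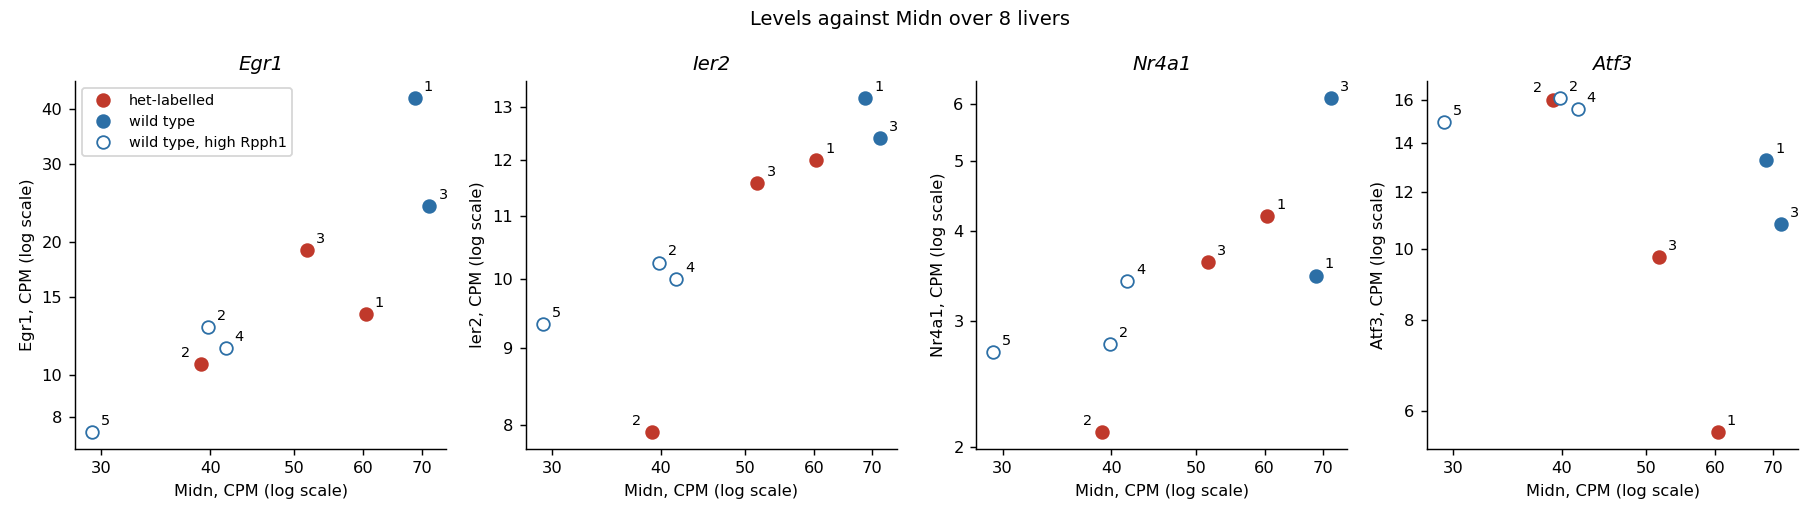
CPM of Egr1, Ier2, Nr4a1 and Atf3 (vertical axes, log scale) against CPM of Midn (horizontal axis, log scale) in 8 livers, numbered by library, with red points for het-labelled livers, blue for wild type and open blue for wild-type libraries 2, 4 and 5. The first 3 genes climb with Midn (r of 0.87, 0.84 and 0.77), and Atf3 runs the other way (r of −0.57).

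Without centring, none of the other 6 had an unadjusted p under 0.05 by r or by rho. Atf3 ran the other way, with r of −0.57 (exact permutation p = 0.132; 0.276 adjusted) and rho of −0.64 (exact permutation p = 0.0962; 0.266 adjusted). Junb had r of 0.42, Jun 0.37, Fosb 0.10, Btg2 0.08 and Fos 0.06 (adjusted exact permutation p between 0.451 and 0.932).

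Correlation with Midn was common in this dataset. The 33.6% is taken over 14437 genes by the exact p of Pearson's r. At an adjusted p under 0.05 the share was 14.8% of all genes (2135) and 1 of 9 here (Egr1). For Spearman's rho it was 24.5% of genes unadjusted, with the same 3 of 9, and 0 genes adjusted. Egr1 stood at percentile 96.2 of r among all genes, Ier2 at 94.2 and Nr4a1 at 89.0. The median r of all genes was 0.10.

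**Figure D4:**
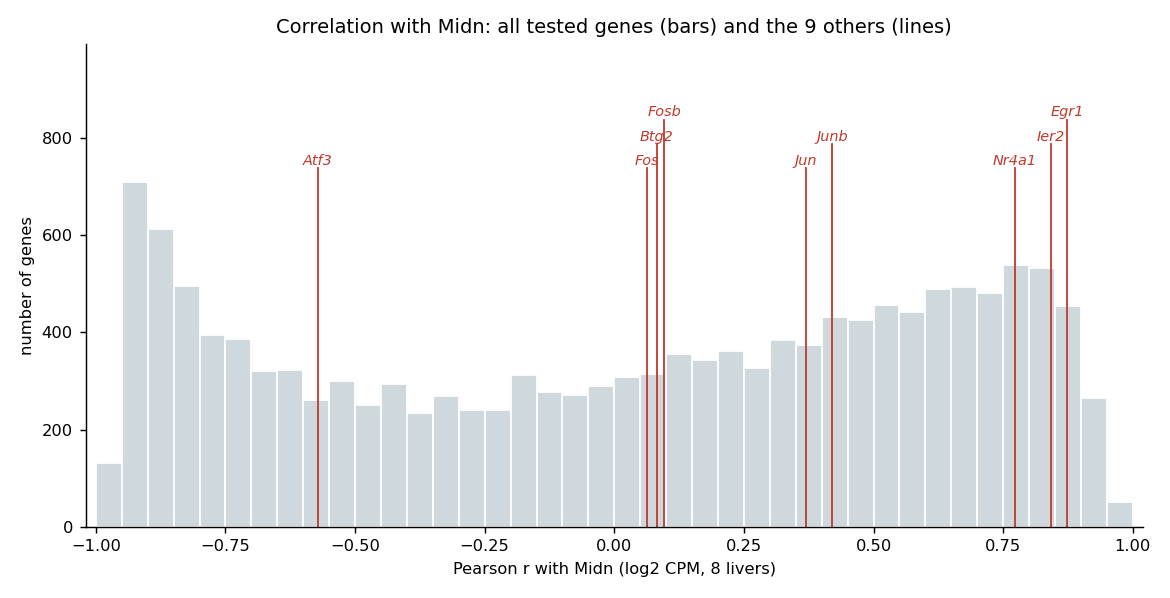
Number of tested genes (vertical axis) by their Pearson r with Midn over 8 livers (horizontal axis, bins of 0.05), with red lines at the 9 immediate early genes. The bars pile up toward both ends, and Egr1 (0.87), Ier2 (0.84) and Nr4a1 (0.77) fall on the broad right shoulder and not beyond it.

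Rpph1, Rmrp and some of the cell type markers also moved with Midn. Rpph1 fell with rising Midn (r = −0.89, exact permutation p = 0.00305, 0.0345 adjusted; rho = −0.90; r = −0.76 without wild-type libraries 5 and 3), as did Rmrp, another RNA without a poly(A) tail (r = −0.92). Of the 6 Kupffer cell markers 5 ran negative and 3 had an unadjusted p under 0.05 (Vsig4, Cd5l and Adgre1), with a summed level of 436 to 583 CPM in het-labelled and 319 to 1588 CPM in wild-type livers. The 3 tested neutrophil markers also ran negative, S100a8 and S100a9 with r of −0.95 each, and their list summed to 7.86 to 23.4 CPM in het-labelled and 6.35 to 51.7 CPM in wild-type livers. Ly6g, a defining neutrophil marker, did not pass the filter on low counts. Of the other lists, sinusoidal endothelium had 1 of 6 markers with an unadjusted p under 0.05 (Pecam1, r = 0.87). Stellate cells had 2 of 6, in opposite directions (Des with r of 0.77, Lrat with −0.80), and T and NK cells 1 of 6. Hepatocytes, B cells and bile duct had none. Over all tested genes the share was 33.6%, and only the Kupffer cell and neutrophil lists stood above it. In whole-liver RNA, fewer cells of a type and less RNA per cell cannot be told apart. No r within the 5 libraries of low or the 3 of high Rpph1 share is given, since each holds under 6 livers, and the part of these measures in the relation with Midn was not tested.

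The 5 genes most like Midn, among those with a mean of at least 1 CPM, were Fnbp4 (r = 0.99), Crocc (0.99), Adnp2 (0.98), Micall1 (0.98) and Frs2 (0.98). The 5 most unlike it were Maoa (−0.99), Znrf2 (−0.98), Dek (−0.98), Rpl35a (−0.97) and Psmg4 (−0.97), and each of the 10 had an adjusted exact permutation p of 0.0274 over 8 livers. Fnbp4, which codes for a formin-binding protein, had 40.3, 32.2 and 37.9 CPM in het-labelled libraries 1 to 3 and 42.8, 30.5, 45.95, 30.8 and 25.6 CPM in wild-type libraries 1 to 5. Maoa, a monoamine oxidase of mitochondria, had 12.2, 22.2 and 15.8 CPM in het-labelled libraries 1 to 3 and 9.46, 24.5, 8.33, 23.8 and 35.5 CPM in wild-type libraries 1 to 5. Both ran close to the order of Midn or its reverse, with wild-type library 5 at 1 end and wild-type library 3 at the other.

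The genes beside Midn on chromosome 10 were read alongside the targeted gene. Of the 8 on each side, 14 were tested, 0 were called by edgeR, and 3 (Polr2e, Atp5d and Gamt) were higher in every het-labelled than in every wild-type liver, against 7.54% of all tested genes. Atp5d, a subunit of the mitochondrial ATP synthase and the nearest gene upstream, stood at 121 ± 16.9 CPM in het-labelled and 86.0 ± 9.12 CPM in wild-type livers (SD, n = 3 and 5), a log2 fold change of 0.50 (SE 0.15; edgeR adjusted p = 0.259). Gamt, which makes creatine, stood at 91.0 ± 19.9 and 54.5 ± 10.1 CPM in het-labelled and wild-type livers (0.74, SE 0.20; edgeR adjusted p = 0.259). These neighbours were chosen after their values were seen.

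The wider pathway was read from 5 lists of related genes, and edgeR called none of their members by genotype over all 8 livers at an adjusted p under 0.05. Against wild-type libraries 2, 4 and 5 alone, where 18.9% of all tested genes were called, it called 5 of the kinase inputs, 4 other immediate early genes, 4 feedback inhibitors, 3 other AP-1 and ATF genes and 1 SRF or ternary complex factor gene. Of the 26 kinases, receptors and ligands upstream of the family (ERK, p38 and JNK inputs), an unadjusted p under 0.05 was reached by 5 on the higher and 1 on the lower side (10.3% and 5.43% over all tested genes), and their median log2 fold change was 0.18, against 0.00 for all genes. Hbegf, an EGF receptor ligand, had 0.830, 1.24 and 1.33 CPM in het-labelled libraries 1 to 3 and 1.81 to 3.85 CPM in wild-type livers with a median of 2.29 in wild-type library 5, so that the groups did not overlap (log2 fold change −1.21, SE 0.35; edgeR adjusted p = 0.259). The kinase genes Map2k3 (0.58, SE 0.18) and Map2k2 (0.54, SE 0.17), which activate p38 and ERK, had edgeR adjusted p of 0.263 and 0.265.

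The list of 43 other immediate early genes, of which 41 were tested, had 3 genes higher and 5 lower by the unadjusted p, against the same 10.3% and 5.43%, and a median of −0.13 with 28 of 41 below 0. Trib1, a pseudokinase that restrains C/EBP proteins in liver, had 86.2, 53.5 and 75.8 CPM in het-labelled livers against 31.9 to 47.1 CPM in wild type, without overlap (0.80, SE 0.19; edgeR adjusted p = 0.259). Cebpb, a liver transcription factor, differed by 0.56 (SE 0.19; edgeR adjusted p = 0.267) and Id1, an inhibitor of helix-loop-helix factors, by −0.71 (SE 0.26; edgeR adjusted p = 0.273). In both, a wild-type library stood among the het-labelled values.

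Feedback inhibitors, which end the early response by dephosphorylating kinases, blocking receptors or destroying mRNA, numbered 19, of which 5 were higher and 1 lower by the unadjusted p (10.3% and 5.43% of all tested genes), with a median of −0.04. Zfp36, which binds the ATTTA elements described above, had 69.5, 52.1 and 94.3 CPM in het-labelled libraries 1 to 3 and 26.8 to 52.6 CPM in wild-type livers, where library 1 lay just above het-labelled library 2 (0.84, SE 0.25; edgeR adjusted p = 0.259). Errfi1, an inhibitor of the EGF receptor, had 1314, 888 and 940 CPM in het-labelled libraries 1 to 3 against 555 to 813 CPM in wild type, without overlap (0.62, SE 0.21; edgeR adjusted p = 0.268). Tob1, an antiproliferative relative of Btg2, differed by 0.49 (SE 0.17; edgeR adjusted p = 0.268).

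Of the 18 other AP-1 and ATF genes 17 were tested, 1 higher and 0 lower by the unadjusted p, with a median of 0.00. The largest differences by p were Mafg (0.36), Maff (−0.32) and Creb1 (−0.28), with edgeR adjusted p of 0.310, 0.411 and 0.429. Of the 6 SRF and ternary complex factor genes 0 passed the unadjusted p in either direction, and Elk4 had the smallest p (0.41, SE 0.19; edgeR adjusted p = 0.323), followed by Mrtfb (0.25) and Elk3 (−0.20). All 6 had a positive r with Midn, with a median of 0.79, and 4 of them an unadjusted exact p under 0.05 against 15.2% of all genes in that direction. Srf itself, named after its value was seen, had r of 0.90 (exact permutation p = 0.00216; 0.0307 adjusted) and 11.3, 10.2 and 9.91 CPM in het-labelled libraries 1 to 3 against 12.3, 8.96, 10.9, 9.72 and 7.41 CPM in wild-type libraries 1 to 5. The list was picked with results of these data known, and its count is a description.

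**Figure D5:**
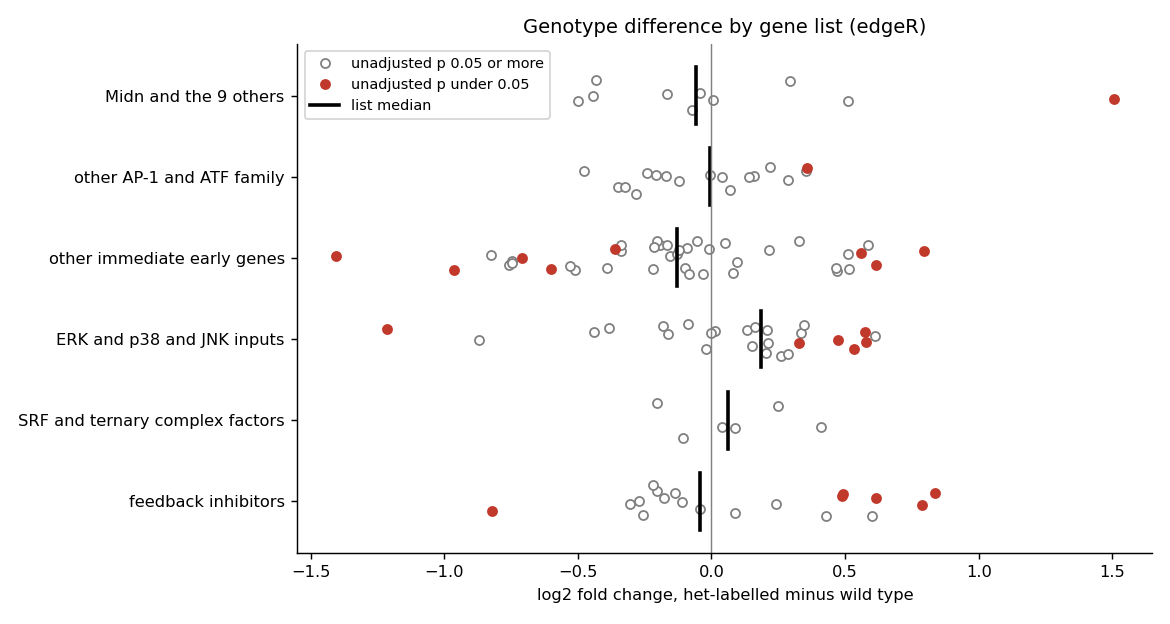
Log2 fold change of each gene, het-labelled minus wild type (horizontal axis), by edgeR, in 6 gene lists (rows), with red points for an unadjusted p under 0.05, open points for the rest and a black bar at the list median. The medians lie between −0.13 and 0.18, and red points stand on both sides of 0 among other immediate early genes, kinase inputs and feedback inhibitors.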

How the data were processed

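Libraries were made from DNase-treated liver RNA with the KAPA mRNA HyperPrep kit, per the labels' protocols. The submitters' processing notes name STAR, HTSeq, bcl2fastq 2.18.0.12 and the build mm10; the annotation, counting mode and strand setting are not given there. The authors deposited whole-number counts per gene, and RPKM values that equal counts per exon length over a library-wide divisor. The divisor was 0.888 to 1.25 times the count total, so the deposited RPKM carry a scaling of the authors' own. The exon length deposited beside each table is in bases and is no signal of any library.

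Groups follow the genotype labels (3 het-labelled, 5 wild type). Counts were fitted with edgeR 4.0.16 (TMM scaling, factors 0.852 to 1.27; filterByExpr with a minimum count of 10 and total of 15; robust quasi-likelihood test; Benjamini-Hochberg over 14438 genes). Correlation used log2 CPM with a prior count of 2, and 40320 pairings per gene for the exact permutation test. DESeq2 1.42.0, limma 3.58.1, R 4.3.3, Python 3.11.15, NumPy 2.4.6, SciPy 1.17.1 and matplotlib 3.10.9 were also used. Also tried were DESeq2, limma-voom, RLE scaling, plain library sizes, other filters, log2 RPKM with pseudocounts of 0.1 and 1, no robust estimation, leaving Rpph1 and Rn45s out of library sizes, thresholds of 0.10 and 0.01, and leaving out libraries.

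Named genes are the 10, up to 3 of each list by smallest edgeR p, and the 5 genes highest and lowest in r with Midn, predicted genes and pseudogenes aside. The genes and lists were chosen with earlier results of these data known; promoter letters, 3′ untranslated regions and neighbouring genes were examined after the values were seen. Promoters were read for 8 of the 10 from the RefSeq table used; those of Egr1 and Ier2 were not analysed here. The scripts were tested on simulated data. There the genotype test called 0 of 50 genes changed 1.5-fold, 13 of 50 changed 2-fold, 31 of 50 changed 3-fold and 40 of 50 changed 4-fold. It also called 8 of 14091 unchanged genes. A gene that was not called may therefore still differ. Replicate pairs differed by more than sampling noise (chi-square per degree of freedom of 22.9 or more), so 0 libraries were merged.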

Additional observations from a re-analysis of the deposited data

Results flagged for a closer look

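Nr4a1 in wild-type library 3 stood apart from its group. Its 6.13 CPM lay above the other 4 wild-type values of 3.46, 2.78, 3.40 and 2.71 CPM, and the gap to the nearest was 0.779 of the group's whole range, beyond Dixon's 95% critical value of 0.71 for 5 samples. The same test was applied to each of the 10 genes in wild type, and chance alone marks about 1 group in 20. That library also had the highest Midn level of the 8, at 71.5 CPM. The het-labelled group of 3 was not tested in this way.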

How the results depend on the processing

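No paired analysis was possible because each liver carries a number of its own and the replicate numbers, given in accession order, pair nothing. Calls of the 10 genes by genotype stayed at 0 in all 22 alternatives, thresholds of 0.10 and 0.01 among them. With the filter on a mean of at least 1 CPM, Fosb was not tested. The count over all genes was 166 with DESeq2, 21 without wild-type libraries 2, 4 and 5, 2632 without wild-type libraries 1 and 3, and 0 in the other 19, leave-one-out fits included. By the unadjusted p under 0.05, Fosb passed in leave-one-out fits only without het-labelled 2 or wild type 4, and not with library size alone. Junb passed, on the lower side, with RLE scaling, DESeq2, library size alone and without wild type 4 or 5. Jun passed, on the higher side, with no filter and without het-labelled 1 or 2, and Atf3, on the lower side, without het-labelled 2. With library size alone, 427 of all genes passed on the higher side and 1198 on the lower.

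The log2 fold change of Midn, 0.00 as reported, was −0.041 with RLE scaling, −0.26 with library size alone, −0.032 with DESeq2, −0.0145 with a mean of at least 1 CPM and −0.54 without wild-type libraries 2, 4 and 5. Library size alone also moved the median of all genes to −0.18. On leaving out 1 library at a time, log2 fold changes ran from −0.14 to 0.17 for Midn, −0.18 to 0.51 for Fos (lowest without het-labelled 1), −0.69 to 0.039 for Egr1 (highest without wild type 1), −0.17 to 0.10 for Ier2 and −0.37 to 0.081 for Nr4a1 (both highest without het-labelled 2), and −0.35 to 0.11 for Btg2. Without wild-type libraries 1 and 3, Egr1 (0.40), Ier2 (0.040) and Nr4a1 (0.11) turned positive. Fosb, Jun, Junb and Atf3 kept their sign in every setting where they were tested. Fosb did not pass the filter on a mean of at least 1 CPM and has no value there.

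Of the 9 genes other than Midn, 1 was correlated with Midn at an adjusted p under 0.05 as reported, beside 2135 of all genes. The count was 0 with Spearman's rho and without the 2 farthest libraries, where 0 of all genes passed too. It was also 0 with no filter (1512 of all genes) and on genotype-centred values (849). It was 2 with RPKM at pseudocounts of 0.1 (2393 of all genes) and 1 (2373), and 3 with library size alone (3581). On leaving out 1 library it was 0 to 1, beside 0 to 2936 of all genes, where fewer libraries give fewer pairings. Egr1 lost its call in 12 of 17 alternatives, with r between 0.82 and 0.94. Correlations near 0 changed sign. Fos was −0.19 by rho, Fosb −0.041 with library size alone and Btg2 −0.097 without the 2 farthest, and leaving out 1 library gave −0.42 to 0.32 for Fos, −0.063 to 0.36 for Fosb and −0.024 to 0.26 for Btg2. For these changes of sign the cause was not tested. Counts of 31 or fewer per library limit Fosb.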
